A study of Bos taurus with 12 samples.

Results

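The 10 genes described here carry prolactin and growth hormone signals into the cell: the receptors PRLR and GHR, the kinase JAK2, the transcription factors STAT5A, STAT5B and STAT3, and the inhibitors SOCS1, SOCS2, SOCS3 and CISH. They were chosen by name and not by a measured value, though with earlier results of these data known, and a probe belonged to a gene when its RefSeq transcript carried that gene's symbol. Of the 12787 genes with a named probe, 8 were among these 10, with 15 of the 43653 probes. JAK2 and SOCS1 had no matched probe and were not analysed here.

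Expression was measured in mammary gland (MG) biopsies of 6 multiparous Holstein cows in midlactation, 1 one-colour array per biopsy. In the control group (CONT, n = 6) the cows were fed a lactation diet ad libitum and sampled on day 0. In the restricted group (REST, n = 6) the same cows had been given feed covering 50% of their net energy for lactation needs and were sampled on day 6. No other agent, allele or strain differed between the groups, and no age was given. CONT always came first and the biopsies alternated between the rear glands, so the diet, the time and the order of sampling cannot be told apart. The study's methods mention the exclusion of a mastitic Holstein cow and its design text counts 5 cows, whereas the labels name 6, so the tests were also run with every cow omitted once. A biopsy holds several cell types, and in such bulk tissue fewer cells of a type and less RNA per cell cannot be told apart.

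Prolactin and growth hormone bind class I cytokine receptors that have no kinase of their own and are served by JAK2. Activated JAK2 phosphorylates STAT5A and STAT5B, which enter the nucleus and switch on target genes, in the lactating MG those of milk proteins. CISH and the SOCS genes are themselves STAT5 targets, and their proteins damp the receptor, the kinase or the STAT in a negative feedback loop. STAT3, which responds mostly to cytokines of the interleukin 6 family, is known in the MG for its part in involution.

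Levels are log2 signals relative to each array's own 75th percentile, so 0 is the 75th percentile of that array, and changes are REST minus CONT on the log2 scale. Each change was tested within cows with limma, and p-values were adjusted over the 19406 probes that stood well above background on every array of at least 1 group. A gene is said to rise or fall only at an adjusted p under 0.1, the threshold of the study, and the interval given with a change is the 95% confidence interval of limma, not adjusted for the number of probes. Of the 15 matched probes 9 were tested, for 7 genes, and all 9 stood well above background on all 12 arrays. The 4 arrays of cows 5 and 6, which shared a slide, were dimmer, with a 75th percentile of 73.2 to 117 intensity units against 252 to 390.0 on the other 8, and with 41.9% to 48.0% of probes well above background against 61.8% to 67.9%.

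After 6 days of restriction SOCS2 signal fell to 66.4% of its control level (95% interval 53.9% to 81.8%). No other gene of the set passed the test, and none rose. STAT5B and CISH had mean signals 0.37 and 0.73 lower in REST, with intervals below 0 but adjusted p values of 0.109 and 0.148 in limma. On their brightest probes the means of GHR, STAT5A and STAT3 moved by 0.05 or less. In all, 1 of the 9 tested probes was called (11.1%), lower in REST, against 16.0% of all tested probes, of which 8.78% were lower and 7.22% higher. The median change of the 9 probes was -0.22, beside 0.00 for all tested probes, and 7 of the 9 had a lower mean in REST. The CONT and REST levels overlapped for each of the 9 probes, where 2.25% of all tested probes had groups that did not overlap.

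**Figure D1:**
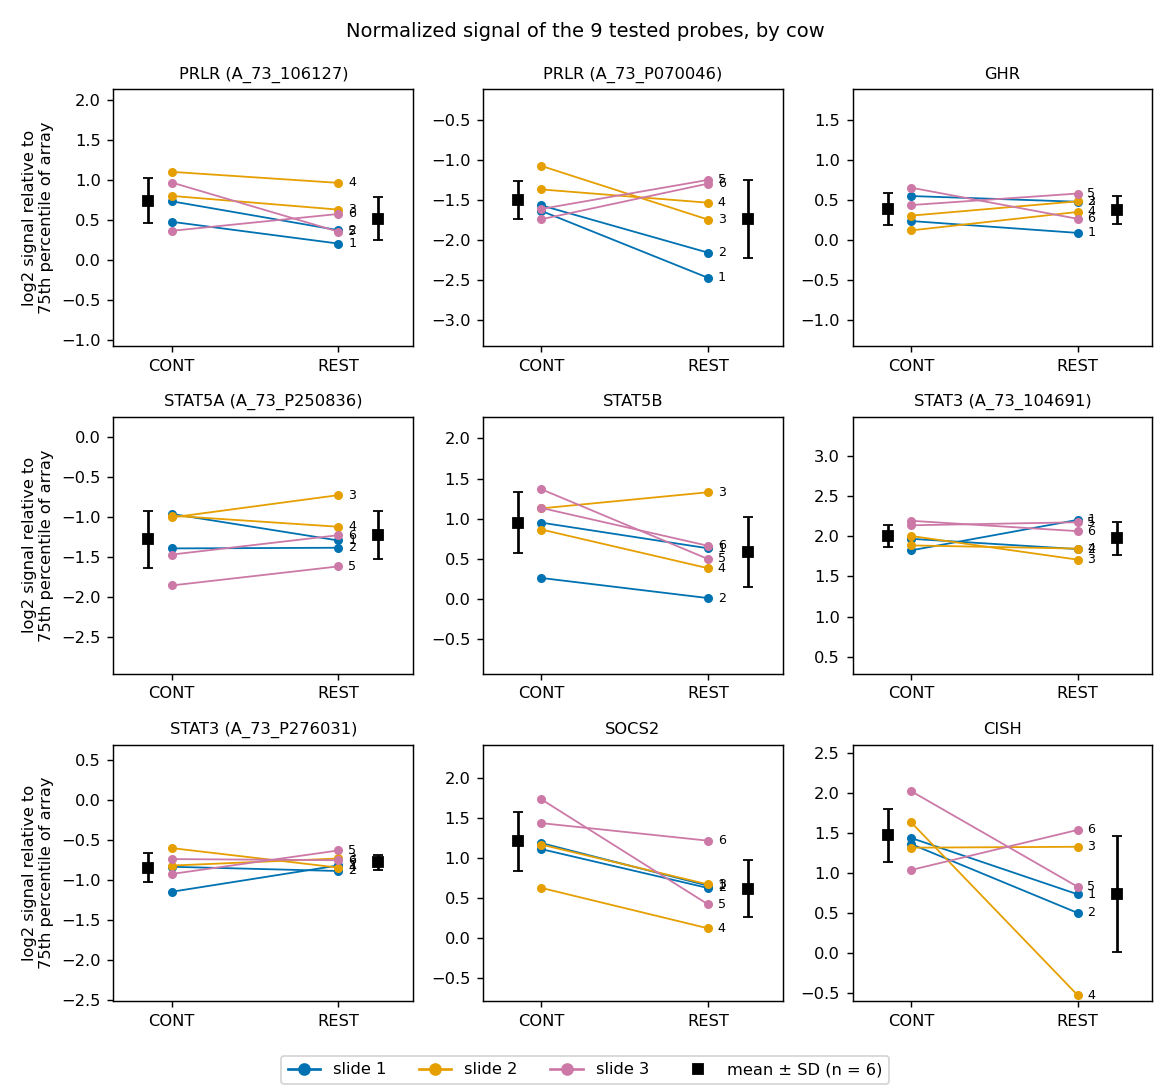
Normalized signal (log2, relative to the 75th percentile of the array) of the 9 tested probes in each numbered cow, on day 0 (CONT) and on day 6 (REST), with a line joining the values of a cow, a colour for each slide, and squares with bars for the mean ± SD (n = 6). The line of SOCS2 falls in 6 of 6 cows, CISH is lower in 4 and higher in 2, and the lines of GHR, STAT5A and STAT3 run in both directions.

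PRLR, the receptor through which prolactin maintains milk secretion, was read by 2 probes made to different transcript records. The brighter one (A_73_106127) ranged from 0.37 through a median of 0.77 to 1.10 in CONT, and from 0.21 through 0.47 to 0.96 in REST. Its mean was 0.74 ± 0.28 (SD, n = 6) in CONT and 0.52 ± 0.27 in REST, a change of -0.22 ± 0.11 (SE; interval -0.47 to 0.02; limma adjusted p = 0.217). The level was lower in 5 of 6 cows and 0.21 higher in cow 6, and the groups overlapped over most of their range. The second probe (A_73_P070046), a dimmer one, changed by -0.24 ± 0.18 on average (interval -0.65 to 0.17; limma adjusted p = 0.418). On this probe the cows split by slide: the 4 cows of slides 1 and 2 were lower in REST, by 0.17 to 0.83, and the 2 cows of the dim slide were 0.36 and 0.44 higher. Without cows 5 and 6 its change was -0.56, with a limma adjusted p of 0.0452, whereas without cow 1 it was -0.12 (limma adjusted p = 0.727) and without cow 3 it was -0.16. The brighter probe changed by -0.15 without cow 5.

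GHR, the receptor of growth hormone, had nearly the same mean in both groups. CONT ranged from 0.12 through 0.37 to 0.65 and REST from 0.09 through 0.41 to 0.58, so that the REST values lay almost within the CONT range. The change was -0.01 ± 0.10 (SE, n = 6; limma adjusted p = 0.964), and its interval of -0.24 to 0.22 leaves room for a level between 84.9% and 116% of control. It was lower in 3 cows and higher in 3. An alternative signal was also computed, with the normexp background correction, from raw median spot intensities and with an offset of 50, which changes these choices together. With it the mean turned positive, to 0.037. Without normexp, the mean lay between -0.057 and 0.067 as each cow was left out.

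STAT5A and STAT5B are close relatives that lie next to each other, with STAT3 as the next neighbour, in the ARS-UCD2.0 gene table. In the MG of other mammals STAT5A is the form most tied to prolactin and milk protein genes, while STAT5B is the one most tied to growth hormone. The STAT5B level ranged from 0.26 through 1.04 to 1.37 in CONT and from 0.01 through 0.56 to 1.33 in REST. It was lower in 5 of 6 cows, by 0.25 to 0.87, and 0.20 higher in cow 3, whose REST sample was the highest of its group. The change of -0.37 ± 0.13 (SE; interval -0.65 to -0.08) amounts to 77.6% of control and had a limma adjusted p of 0.109. Without cow 3 the change was -0.48 with a limma adjusted p of 0.0540, and without cow 5 it was -0.26. It was smaller with the normexp signal, at -0.22 (limma adjusted p = 0.243), and without cows 5 and 6, at -0.21 (limma adjusted p = 0.313).

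The only tested STAT5A probe (A_73_P250836) ran from -1.85 through -1.20 to -0.96 in CONT and from -1.62 through -1.26 to -0.73 in REST. The groups overlapped almost wholly, with 2 cows lower and 4 higher in REST. The change was 0.05 ± 0.10 (SE; interval -0.18 to 0.28; limma adjusted p = 0.786), and it was -0.030 with the normexp signal and -0.045 without cows 5 and 6. Set against STAT5B in the same cow, the STAT5A change was higher by 0.41 ± 0.42 (SD, n = 6), ranging from -0.01 to 1.11 and above 0 in 5 of 6 cows. An exact two-sided sign-flip permutation test of this difference gave p = 0.0625, where 0.031 is the smallest p that 6 cows allow. This pair was chosen after its values were seen, and probe sequences were not used here, so a share of signal crossing between these similar transcripts was not checked.

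STAT3 was read by 5 probes, of which 2 were tested. On the brighter one (A_73_104691) the CONT levels ran from 1.82 through 1.99 to 2.19 and the REST levels from 1.71 through 1.96 to 2.21. The 2 groups covered nearly the same range, and the change of -0.03 ± 0.10 (SE; interval -0.25 to 0.19) had a limma adjusted p of 0.875. The second tested probe (A_73_P276031) gave 0.07 ± 0.10 (interval -0.15 to 0.28; limma adjusted p = 0.687), so the sign of the mean differed between the probes.

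**Figure D2:**
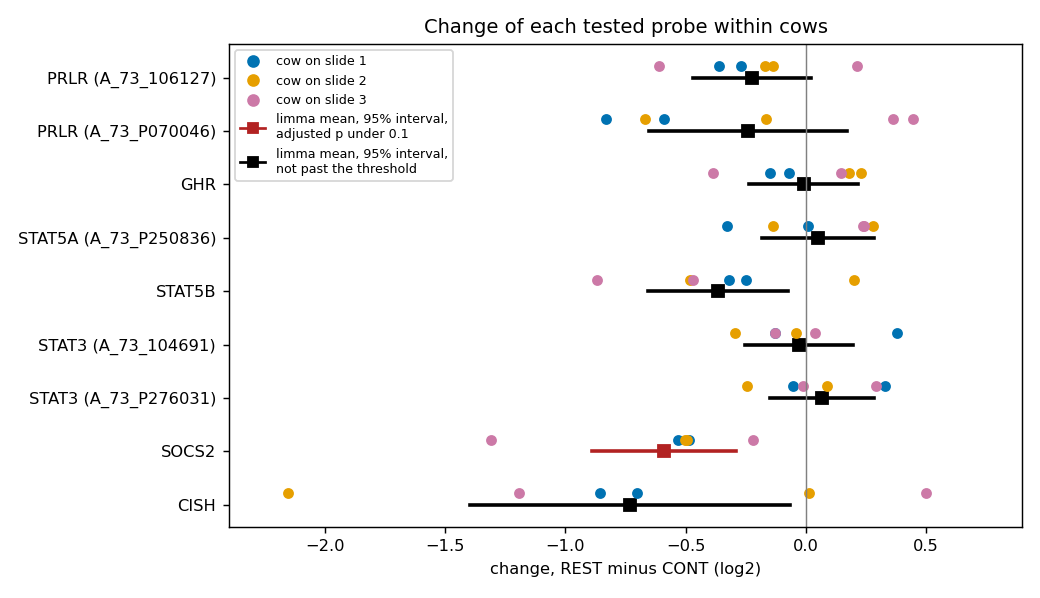
Change in normalized signal (REST minus CONT, log2) of the 9 tested probes. Each small point is a cow coloured by slide, each square is the limma mean and each bar its 95% interval, with SOCS2 in red as the only probe past the adjusted p threshold of 0.1, and CISH, whose cows run from -2.15 to 0.50, has the widest interval.

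The inhibitors held the only call. SOCS2 is the member of its family best known as a brake on growth hormone signalling. Its level ranged from 0.62 through a median of 1.17 to 1.73 in CONT and from 0.12 through 0.64 to 1.21 in REST. The ranges overlapped because the cows started at different levels, yet REST was below CONT in 6 of 6 cows, a pattern shown by 9.78% of all tested probes. Within cows the change was -0.53, -0.48, -0.50, -0.50, -1.31 and -0.22 in cows 1 to 6, so that 4 cows lay close together, cow 5 fell most and cow 6 least. The mean was 1.21 ± 0.37 (SD, n = 6) in CONT and 0.62 ± 0.36 in REST. The change of -0.59 ± 0.13 (SE; interval -0.89 to -0.29) had a limma adjusted p of 0.0349, and the exact two-sided sign-flip permutation test gave p = 0.031, the smallest possible. The fall was present on every slide, at -0.51, -0.50 and -0.76, and without cow 5 it was -0.45. With the normexp signal it was -0.40 (limma adjusted p = 0.0437), the smallest change of all settings run.

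Without the cow or the slide in the model the change of -0.59 had a limma adjusted p of 0.136, and 4.31% of all tested probes were called. With the slide in place of the cow the adjusted p was 0.0570. With the cow kept, the call was also lost with no filter on dim probes (0.139) and with no moderation of the variances (0.106). SOCS2 was past the threshold in 18 of the 21 settings run, with adjusted p values from 0.0206 to 0.139 over all of them. The 21 count the main fit, the deposited series table with the same intensities, and the mean of a gene's tested probes. As SOCS2 had 1 tested probe, these are not separate checks of it.

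CISH, the first described gene of this family and a classic read-out of STAT5 activity, had the lowest mean change and the widest spread between cows of the 9 tested probes. The level in CONT lay between 1.04 and 2.02, with a median of 1.40, and in REST between -0.52 and 1.54, with a median of 0.78. The cows did not move together: cows 1, 2, 4 and 5 were lower in REST by 0.70, 0.86, 2.15 and 1.19, cow 3 was level at 0.01 and cow 6 was 0.50 higher. The SD between cows was 0.33 in CONT and 0.73 in REST. The mean change was -0.73 ± 0.29 (SE; interval -1.40 to -0.07; limma adjusted p = 0.148), and it ran from -0.45 without cow 4 (adjusted p = 0.310) to -0.98 without cow 6 (adjusted p = 0.0679). With the normexp signal it was -0.51 (adjusted p = 0.161). The exact two-sided sign-flip permutation test, whose p cannot go below 0.031 here, gave p = 0.125 for CISH, 0.125 for the brighter PRLR probe and 0.0625 for STAT5B.

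SOCS3, the inhibitor tied most closely to STAT3 and interleukin 6 signals, was not well above background on any of the 12 arrays. Its probe is listed between -6.59 and -4.01, and values this low have no order. These arrays therefore give no SOCS3 change, which is not evidence that the gene was silent.

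**Figure D3:**
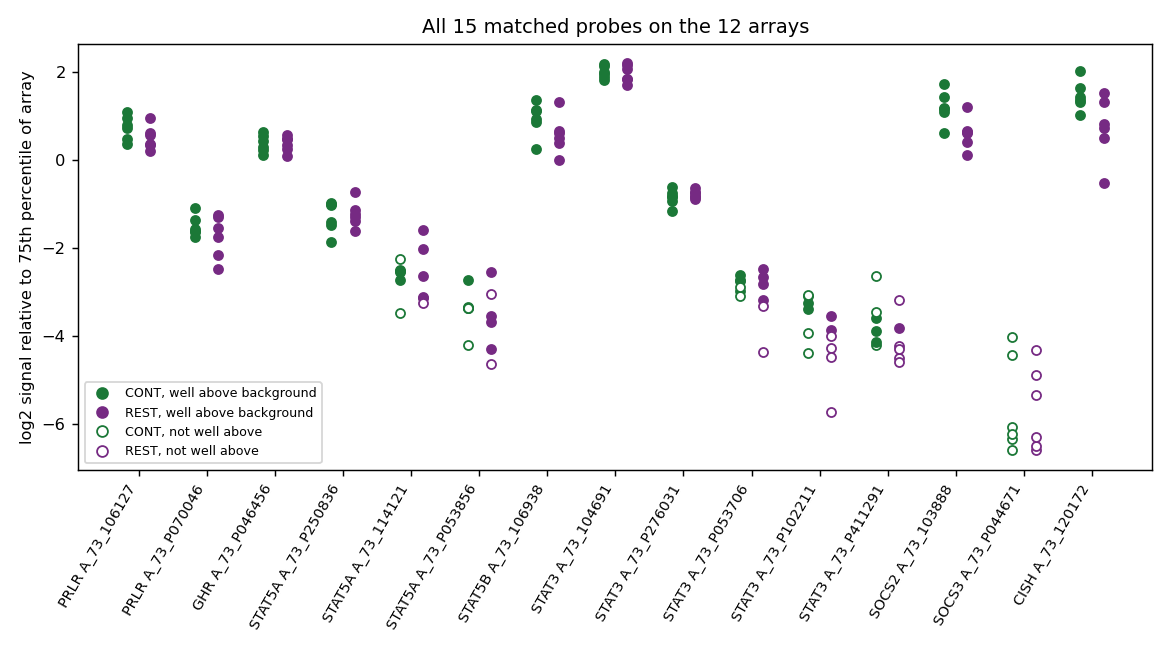
Normalized signal (log2) of all 15 matched probes on the 12 arrays, with filled points where the scanner called the spot well above background and open points where it did not. The 9 tested probes are filled throughout, the SOCS3 probe is open throughout, and the dim STAT3 and STAT5A probes are filled on some arrays.

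The other genes of the pathway were grouped into 7 lists by role, which hold 67 genes, of which 56 had a probe and 42 were tested. Of these 42, 8 were called on their brightest probe (19.0%), 3 higher and 5 lower, against 16.2% of the 7932 genes tested the same way, 6.95% higher and 9.27% lower. When the cow was not in the model, 2 of the 42 were past the threshold, PPIA and CCND1, against 4.41% of all genes.

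On the side of the hormones, no local source could be tested. No PRL probe was well above background on more than 2 arrays of either group. No GH1 probe was so on any CONT array or on more than 1 REST array, and no CSH2 probe on any array. IGF1, which growth hormone induces, was tested and changed by 0.08 ± 0.20 (SE; limma adjusted p = 0.820).

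Of the other JAK and STAT genes, 0 of 4 tested passed in limma, and 2 had an unadjusted p under 0.05, as did 27.7% of all genes. STAT2, a transcription factor of interferon signalling, had a mean change of 0.29 ± 0.12 (SE; adjusted p = 0.176). TYK2, the kinase that serves interferon receptors, had -0.28 ± 0.10 on its brightest probe (adjusted p = 0.103), and its other tested probe was called with the opposite sign. Of the other inhibitors, the remaining SOCS genes and the PIAS and PTPN genes, 0 of 7 passed in limma and 2 had an unadjusted p under 0.05, a share close to that of all genes. Their changes lay between -0.28 and 0.03 with a median of -0.12, and without the cow in the model 0 of either list passed.

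Among 8 tested receptor adaptors 1 gene rose and 1 fell. SH2B1, which binds JAK2 and enhances its activity, rose by 0.24 ± 0.08 (SE; limma adjusted p = 0.0985), being higher in 6 of 6 cows, but was not called with the cow as a random block (0.111). PPIA, the cyclophilin bound to the prolactin receptor tail, fell by 0.34 ± 0.07 (adjusted p = 0.0330) in 6 of 6 cows, whereas the normexp signal gave -0.19 (adjusted p = 0.139). Of 4 tested cytokine receptors 1 was called: IL4R, a receptor that signals through other JAKs and STAT6, rose by 0.37 ± 0.10 (adjusted p = 0.0498), higher in 6 of 6 cows.

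The known targets of prolactin and STAT5 had 3 of 9 tested genes lower and 0 higher, where 9.27% of all genes were lower and 6.95% higher, and a median change of -0.19, beside -0.01 over all genes. Changes of the 9 genes ran from -0.83 to 0.13. CCND1, the cyclin that drives entry into the cell cycle, fell by 0.83 ± 0.23 (SE; limma adjusted p = 0.0594), lower in 5 of 6 cows. Of the milk protein genes, CSN1S1 fell by 0.26 ± 0.09 (adjusted p = 0.0912) and CSN3 by 0.28 ± 0.08 (adjusted p = 0.0776), both in 6 of 6 cows. Both calls depended on the scaling, since with quantile normalization the changes were -0.09 and -0.07, with adjusted p values of 0.438 and 0.562. Each also rested on 1 probe, of 6 tested for CSN1S1 and 2 for CSN3. CSN1S2 and LALBA were also lower in 6 of 6 cows, at -0.18 ± 0.07 and -0.20 ± 0.08 on their brightest probes (adjusted p = 0.158 and 0.139), though 4 of 5 CSN1S2 probes and 1 of 2 LALBA probes were called. ELF5, a transcription factor that prolactin needs to build secretory tissue, had -0.05 ± 0.09 (adjusted p = 0.727).

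Of 9 tested targets of STAT3, 1 rose and 1 fell, and the median change was 0.10. JUNB, an early response factor, rose by 0.84 ± 0.16 (SE; limma adjusted p = 0.0213) in 6 of 6 cows. HIF1A, the oxygen-regulated factor, fell by 0.54 ± 0.11 (adjusted p = 0.0294), lower in 6 of 6 cows. JUNB and HIF1A were past the threshold whichever cow was left out, and SH2B1 in no such run. CSN1S1 and CSN3 kept the call only without cow 5 (limma adjusted p = 0.0646 and 0.0571). CCND1 kept it only without cow 3 or cow 5 (limma adjusted p = 0.0445 and 0.0451). IL4R lost it without cow 1 or cow 2 (limma adjusted p = 0.124 and 0.147), and PPIA only without cow 4 (0.1005).

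**Figure D4:**
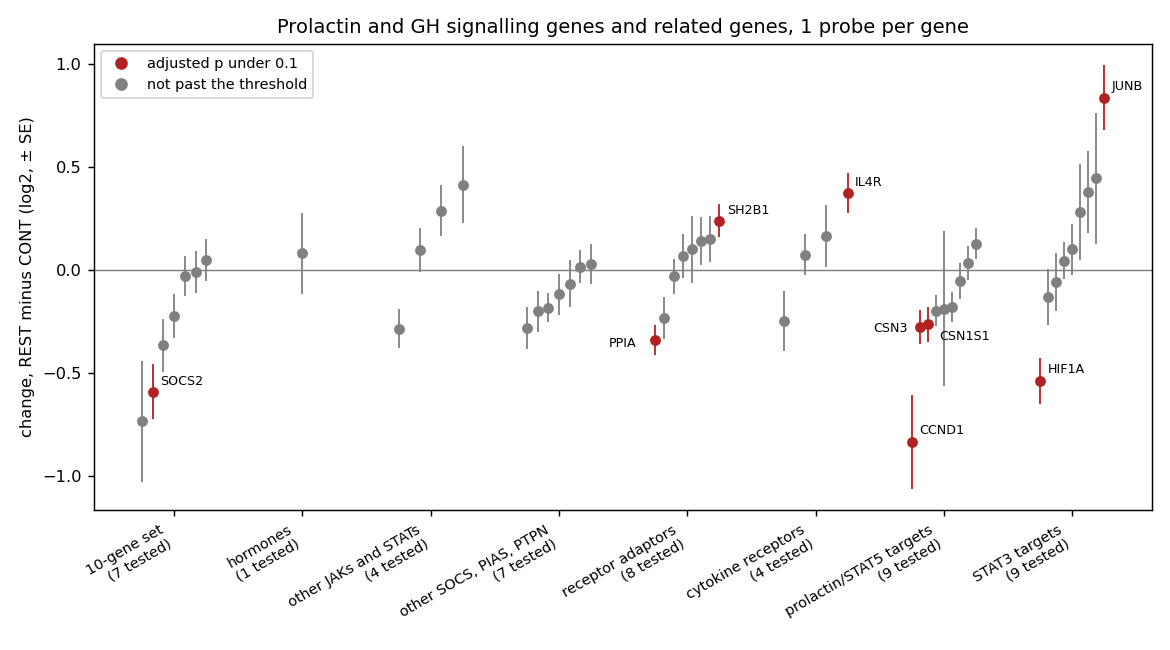
Change in normalized signal (REST minus CONT, log2, ± SE from limma) of the brightest tested probe of each gene, in the 10-gene set and in the 7 lists of related genes. Red points passed the adjusted p threshold of 0.1: SOCS2 in the set, and SH2B1, PPIA, IL4R, CSN3, CSN1S1, CCND1, JUNB and HIF1A in the lists.

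The tissue was checked by markers of the cell types that a biopsy can hold. The casein genes lay far up the scale in both groups, as CSN3 at 9.98 in CONT and 9.70 in REST. Of 33 tested marker genes in 6 lists 8 were called (24.2%), against 16.2% of all genes, and 2 of the 33, VWF and CLDN5, were called without the cow in the model, against 4.41%. Of 7 luminal epithelial markers KRT8 and KRT18 rose, by 0.72 and 0.52, although 1 of 3 KRT8 probes had the opposite sign. The other 5 were not called, and changes over the list ran from -0.22 to 0.72 with a median of 0.12. The summed level of the list on an array, carried mostly by MUC1 and KRT19, was 227 to 320 times the 75th percentile in CONT and 224 to 309 in REST. Of 5 myoepithelial markers KRT17 rose by 0.44 and ACTA2 fell by 0.38, with sums of 79.5 to 156 and 76.9 to 149. KRT18 and ACTA2 were not called when cow was a random block (limma adjusted p = 0.188 and 0.153). Of the 8 called markers KRT8, VWF and CLDN5 were past the threshold whichever cow was left out. FABP4 lost the call without cow 2 or cow 4. KRT17 kept it only without cow 5 or cow 6, ACTA2 only without cow 4, CD3E only without cow 5 and KRT18 only without cow 6. Of 6 endothelial markers VWF rose by 0.54 and CLDN5 by 0.74, and the sums were 14.2 to 23.5 in CONT and 23.0 to 31.1 in REST. Endothelial changes ran from -0.15 to 0.74 with a median of 0.22. CD3E alone of 8 leukocyte markers rose, by 0.35, with sums of 12.2 to 15.7 and 12.8 to 18.1. Leukocyte changes ran from -0.15 to 0.35 with a median of 0.06. FABP4, the only adipocyte marker tested, fell by 0.35, from 141 to 210 in CONT to 98.0 to 145 in REST, but with the normexp signal it had -0.22 (limma adjusted p = 0.171). Of the other adipocyte markers with a probe, no CIDEC probe was well above background on more than 4 arrays of either group. No LEP probe was so on more than 2 of either, and no PLIN1 probe on any of the 12. Of 6 fibroblast markers 0 were called by limma, with 2 at an unadjusted p under 0.05 (27.7% of all genes). Their changes ran from -0.54 to 0.32 with a median of -0.36, and their sums were 34.2 to 63.9 in CONT and 26.4 to 73.5 in REST. The part of these cell types in the SOCS2 fall was not tested.

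By likeness of level, the genes closest to SOCS2 over the 12 arrays, among 7930 genes with 1 probe each, were MID1 (r = 0.905), TBCA (r = 0.899) and LRRC42 (r = 0.896). The 12 arrays are 6 cows sampled at both times, so the points are not independent and no p is given. MID1 fell by 1.12 ± 0.29 (SE; limma adjusted p = 0.0523) and TBCA by 0.27 ± 0.08 (adjusted p = 0.0808), while LRRC42 had a change of -0.33 ± 0.13 (adjusted p = 0.148).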

How the data were processed

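RNA from 12 MG biopsies was hybridised by the authors to bovine 4 x 44K one-colour arrays, 3 slides of 4 arrays, and both arrays of a cow lay on 1 slide. The authors scanned the slides and deposited Feature Extraction (version 11, per the labels) processed signals, an intensity per spot on a linear scale, background-subtracted but not scaled between arrays; the deposited series table held the same intensities. Number of arrays, not counts, limits the precision.

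Here control spots and spots marked as outliers (1 to 13 an array) were left out, each array's 75th percentile was subtracted from its log2 intensities, and repeat spots were averaged. Of 43653 probes, 27131 were given a symbol (62.2%) by matching RefSeq transcripts to the ARS-UCD2.0 gene table; the build of the array design was not used. limma 3.58.1 in R 4.3.3 was fitted across 19406 probes with the cow as a block, with Benjamini-Hochberg adjustment. The methods of the study name GeneSpring tests with Benjamini-Hochberg correction after a 75th percentile shift, with no block or filter stated; these were not rerun, and the nearest alternative here is limma on the filtered probes with no block. The pairing comes from the animal named in the labels: deviations of arrays of the same cow correlated at 0.356 to 0.574, of different cows at -0.33 to 0.134. A gene was represented by its brightest tested probe. By the naming rule, genes named were all 10, up to 4 called genes a list, and the 3 most like a called gene. Outside that rule some genes not called on their brightest probe, or not tested, were also named. Among them were IGF1, STAT2, TYK2, CSN1S2, LALBA and ELF5, which do not stand for their lists. The background alternative (normexp, offset 50) used median intensities of spot and local background, since the files used here held no mean spot signal. The fit was tested on simulated data in which 200 probes were changed by 0.5 or 1.0 in either direction. There 42% of the changes of 0.5 and 84% of those of 1.0 were called, and 14 of 140 calls were false. In that setting most changes of 0.5 were thus missed. The members and the lists were chosen with earlier results of these data known.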

Additional observations from a re-analysis of the deposited data

Results flagged for a closer look

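The change of SOCS2 in cow 5, -1.31, stood apart from the other 5 cows, which lay between -0.53 and -0.22. Its gap to the nearest cow was 0.713 of the whole range, above the 95% critical value of Dixon's test for 6 values. Of 27 groups of values examined, chance at 1 in 20 flags 1.35. Cow 5 lay on the dim slide, and without it the mean change of SOCS2 was -0.45.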

How the results depend on the processing

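Each value is a limma fit with 1 choice changed, except normexp, which also changed the spot statistic and added an offset of 50. The count of called probes, 3105 in the paired fit, was 388 with no filter on dim probes, 837 with no replicate block, 1899 with slide in place of cow as the block, 1853 with no moderation, and 1044 to 3292 with 1 cow left out (1531, 1044 and 1192 without cows 1, 2 and 4). Of the 10-gene set, 0 probes and 0 genes were called with no filter, with no replicate block and with no moderation, where 3, 2 and 1 probes and 2, 2 and 1 genes had an unadjusted p under 0.05. In these SOCS2 stayed at -0.59, with adjusted p values of 0.139, 0.136 and 0.106. Called were 2 probes and 2 genes when a probe had to be well above background on all 12 arrays (SOCS2, STAT5B), with cow as a random replicate block (SOCS2, CISH) and with trended robust moderation (SOCS2, STAT5B), and 2 probes without slide 3 (SOCS2, PRLR), a setting chosen after seeing the data. With 1 cow left out 1 to 2 probes and genes were called, the second being STAT5B without cow 3 and CISH without cow 6, and SOCS2 lay between -0.66 and -0.45 with adjusted p values of 0.0293 to 0.0933. Means near 0 changed sign: GHR was 0.037 with normexp, 0.047 without slide 3 and -0.057 to 0.067 with 1 cow left out; STAT5A was -0.030 with normexp and -0.045 without slide 3; STAT3 was 0.033 with normexp, 0.019 as the mean of its tested probes and -0.11 to 0.024 with 1 cow left out. Of the pathway list genes, 8 in the paired fit, 2 were called with no replicate block and 3 to 10 with 1 cow left out (3 without cow 1, 2 or 4, and 5 without cow 3). The causes were not tested. Arrays of slide 3 limit what can be said of dim probes.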

Other observations

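The 6 matched probes that were not tested include 3 of STAT3, 2 of STAT5A and that of SOCS3. The STAT3 probe A_73_P102211 was lower in REST in 6 of 6 cows, by 0.80 on average, but was well above background on 3 of 6 CONT and 2 of 6 REST arrays, and with dim probes included its limma adjusted p was 0.150. The other STAT3 probes had mean changes of -0.30 (A_73_P053706, well above background on 4 CONT and 4 REST arrays) and -0.45 (A_73_P411291, on 3 and 1). Those of STAT5A had 0.05 (A_73_114121, on 4 and 5) and -0.23 (A_73_P053856, on 3 and 4). Each of these means includes arrays where the spot was not well above background.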
